A study of Mus musculus with 18 samples.

Results

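The Slc25 genes encode the mitochondrial carrier family, the largest set of solute transporters of the inner mitochondrial membrane. The members were chosen by name: every gene whose symbol is Slc25a followed by a number, without a pseudogene suffix, that is present in both deposited count tables. This gave 47 genes of the 35560 genes that could be joined between the tables. The rule uses names only, but the family and the gene lists set beside it were chosen with earlier results of these data known.

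The RNA came from hearts of wild-type male C57BL/6 mice, with 6 libraries in each of 3 groups. All mice were injected subcutaneously on each of 21 days with 2.5 mg/kg of isoproterenol (ISO), which stimulates beta-adrenergic receptors and injures the heart. The ISO group was gavaged with water, and the other groups were gavaged with polystyrene (PS) particles of 100 nm or 1 µm at 50 mg/kg/day over the same 21 days. No group without ISO was analysed here, so every comparison is between ISO-treated hearts with and without particles, and both comparisons share the same ISO libraries. The libraries were made by 2 providers, here called batches. Batch 1 holds 3 ISO, 5 100 nm and 4 1 µm libraries, and batch 2 holds 3 ISO, 1 100 nm and 2 1 µm libraries. The labels give no age for the mice.

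A carrier of this family spans the inner membrane and swaps one small molecule in the matrix for another outside it, or moves it together with a proton. In the heart, whose work depends on oxidative phosphorylation, the adenine nucleotide translocase exports ATP in exchange for ADP, the phosphate carrier supplies phosphate for ATP synthesis, and the carnitine-acylcarnitine carrier brings in fatty acyl groups for beta-oxidation. Other members carry citrate, malate, aspartate, cofactors, nucleotides, iron and glutathione, and a few have left the inner membrane, such as Slc25a46 in the outer membrane and Slc25a17 in peroxisomes.

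Of the 300-base RefSeq promoter windows (GRCm38.p6, 250 bases before to 50 after the annotated start), 46 belonged to 36 of the 47 members. The windows of Slc25a1, the member that rose with 100 nm particles, and of Slc25a20 and Slc25a36, both among the members that fell, are shown so that promoters of genes with opposite changes can be compared. Capitals mark 3 motifs searched on both strands: the GC box (GGGCGG, or CCGCCC on the other strand), the CCAAT box (CCAAT or ATTGG) and the E-box (CACGTG). The windows lie at chr16:17928170-17928469 on the minus strand for Slc25a1, chr9:108661886-108662185 on the plus strand for Slc25a20 and chr9:97110992-97111291 on the minus strand for Slc25a36, and are written 5′ to 3′ along the gene's strand.
Slc25a1: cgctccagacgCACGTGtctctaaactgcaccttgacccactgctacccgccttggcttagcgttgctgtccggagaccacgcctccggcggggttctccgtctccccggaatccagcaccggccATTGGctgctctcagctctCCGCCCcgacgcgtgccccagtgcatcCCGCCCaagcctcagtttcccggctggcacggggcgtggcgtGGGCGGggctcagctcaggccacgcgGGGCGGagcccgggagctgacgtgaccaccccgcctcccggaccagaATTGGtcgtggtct
Slc25a20: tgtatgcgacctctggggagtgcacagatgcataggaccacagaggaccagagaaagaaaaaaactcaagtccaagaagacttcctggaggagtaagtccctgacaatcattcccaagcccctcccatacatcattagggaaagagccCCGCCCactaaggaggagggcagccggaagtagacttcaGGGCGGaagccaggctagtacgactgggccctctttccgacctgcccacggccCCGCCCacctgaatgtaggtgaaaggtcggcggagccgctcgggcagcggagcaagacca
Slc25a36: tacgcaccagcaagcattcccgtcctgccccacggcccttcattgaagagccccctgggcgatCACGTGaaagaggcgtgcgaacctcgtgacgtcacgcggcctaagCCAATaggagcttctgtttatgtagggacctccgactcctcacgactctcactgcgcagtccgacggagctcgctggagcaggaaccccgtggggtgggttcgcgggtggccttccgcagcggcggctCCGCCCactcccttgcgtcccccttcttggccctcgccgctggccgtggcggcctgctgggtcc

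The Slc25a1 window held 4 GC boxes, 2 CCAAT boxes and 1 E-box. The Slc25a20 window held 3 GC boxes and neither of the other motifs, and the Slc25a36 window held 1 of each. Of the members that fell and are not shown, Slc25a15 had windows with 3 and 5 GC boxes. Its windows held 0 CCAAT boxes, and 0 and 1 E-boxes. The Slc25a33 window held 1 of each motif. A GC box stood in 38 of the 46 member windows (82.6%), against 46.2% of 21263 windows of protein-coding genes and 35.7% of all 32851 windows. The CCAAT box was in 47.8% of member windows against 38.2% of protein-coding and 37.4% of all windows. The E-box was in 17.4% of member windows (8 of 46) against 7.8% and 7.2%. A match is a string of letters in the window and does not show that a factor binds there. The 3 windows shown each held at least 1 GC box. Slc25a46 was not among the members with a window.

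Total counts ran from 14032257 to 22600570 per library. The first 2 ISO libraries stood apart from the others: ISO replicate 1 was the lowest of all 18 libraries for 9 of the 40 tested members and the highest for 7, and ISO replicate 2 the lowest for 8 and the highest for 7. Replicate 5 of the 1 µm group was the highest of all 18 for 15 members. Cardiac myocyte markers (8 of 8 genes tested, none passing) summed to 28201 to 88355 CPM (counts scaled to the library size) in ISO, 36369 to 63278 with 100 nm and 41242 to 69693 with 1 µm particles, so they were abundant in every library, as the heart label implies. Their median log2 fold change was -0.41 at 100 nm and -0.37 at 1 µm, and the median summed level was 74797 CPM in ISO against 43752 and 45804 CPM. These summed medians pool batches that the groups hold unequally. In batch 1 the sums were 28201, 88355 and 43571 CPM in ISO and 36369 to 48264 CPM with particles. In batch 2 they were 66502 to 83316 CPM in ISO and 63278 to 69693 CPM with particles. Of the fibroblast markers, Col1a1 and Col1a2 rose at 100 nm (2 of 6, where 3.88% of all genes tested rose). The fibroblast list summed to 634 to 1745 CPM in ISO, 1124 to 2494 CPM at 100 nm and 1002 to 2160 CPM at 1 µm. In batch 2 it was 775 to 1076 CPM in ISO and 1355 CPM in the 100 nm library. Of the skeletal muscle markers, Tnnt3 and Tnni2 fell at 100 nm (2 of 4 tested, where 5.69% of all genes tested fell). The skeletal muscle list summed to 80.5 to 457 CPM (median 356) in ISO and 179 to 749 CPM (median 233) at 100 nm. The 749 CPM were those of 100 nm replicate 6, and the next library had 397 CPM. None of the 6 tested erythroid, 2 adipocyte, 6 endothelial and 6 macrophage markers passed in either comparison. Endothelial markers summed to 467 to 1623 CPM in ISO against 1350 to 2280 CPM at 100 nm and 1438 to 2219 CPM at 1 µm, erythroid ones to 278 to 4022 CPM in ISO against 342 to 1549 and 245 to 1263 CPM, adipocyte ones to 296 to 2573 CPM in ISO against 401 to 1083 and 295 to 1103 CPM, and macrophage ones to 136 to 470 CPM in ISO against 141 to 271 and 179 to 244 CPM. Many of these ISO limits came from ISO replicate 2. It had the lowest endothelial sum (next 1079 CPM) and the lowest fibroblast sum (next 775 CPM) of the ISO group. It also had the highest myocyte (next 83316 CPM), adipocyte (next 1296 CPM) and macrophage sums (next 223 CPM). Whether these cell types have a part in the changes of the carriers was not tested, and in whole tissue fewer cells of a type and less RNA per cell cannot be told apart.

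The family's RNA was concentrated in a few members. Counted per kilobase of transcript and averaged over the 18 libraries, Slc25a4, the adenine nucleotide translocase of heart and skeletal muscle, made up 59.9% of the family's summed level and stood 2.89-fold above Slc25a3, the phosphate carrier. These 2 genes together held 80.6%, the 5 highest (with Slc25a11, Slc25a5 and Slc25a39) 93.1% and the 10 highest 96.5%. In CPM, 7 members averaged 100 or more, 31 lay between 1 and 100, and 9 lay under 1. The remaining translocase gene of the heart, Slc25a5, was on average 12.0-fold below Slc25a4 per kilobase in ISO hearts (SD 3.59, n = 6).

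**Figure D1:**
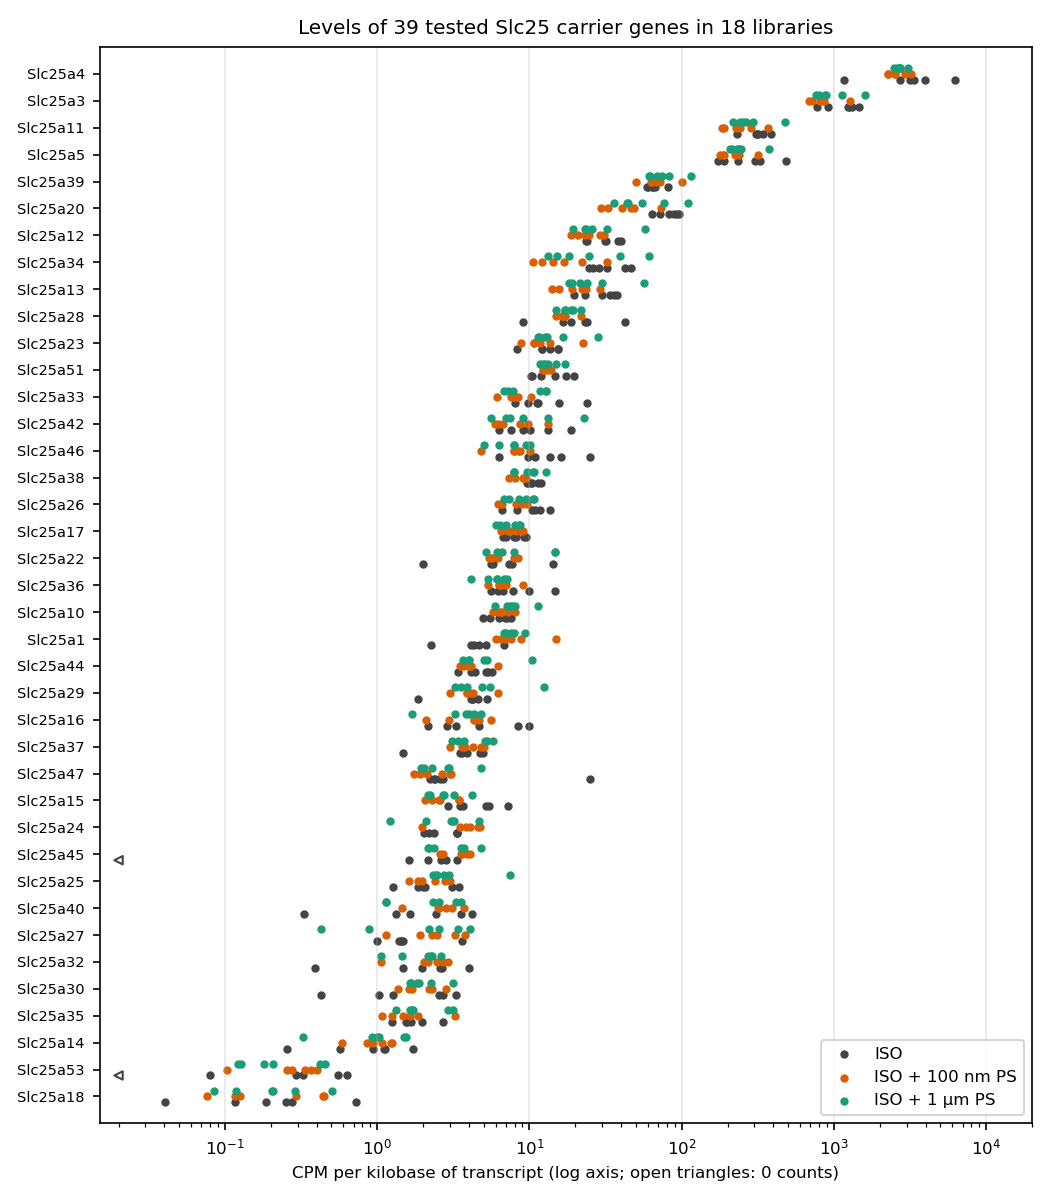
Level of 39 tested Slc25 genes in CPM per kilobase of transcript (x axis, log scale), with 1 point for each of the 18 libraries, coloured by group and ordered by the mean level. Slc25a4 and Slc25a3 lie above all other members, most genes have overlapping groups, and open triangles at the left edge mark libraries with 0 counts.

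The other 7 genes were too low to test. Slc25a41 had 0 counts in every library, and Slc25a48, Slc25a54, Slc25a21, Slc25a43 and Slc25a2 had at most 9 counts in any library. Slc25a31, the translocase of germ cells, reached at most 17 counts. The remaining 40 members passed the filter on low counts.

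With 100 nm particles, 4 of the 40 tested carriers fell and 1 rose relative to ISO (adjusted p under 0.05, edgeR quasi-likelihood test with batch as a covariate, Benjamini-Hochberg over 14623 genes). The genes that fell were Slc25a46, Slc25a15, Slc25a20 and Slc25a33, and the gene that rose was Slc25a1. With 1 µm particles 3 carriers fell, Slc25a46, Slc25a15 and Slc25a36, and none rose. Slc25a46 and Slc25a15 passed in both comparisons. The 12.5% of members that passed at 100 nm compares with 9.57% of all genes tested (5.69% lower and 3.88% higher), and the 7.5% at 1 µm with 7.39% (4.5% lower), so the share of carriers that passed was near the background in both comparisons. The median log2 fold change over the 40 members was -0.19 at 100 nm against -0.02 over all genes, and -0.09 at 1 µm against -0.00, with 26 members negative and 14 positive each time.

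**Figure D2:**
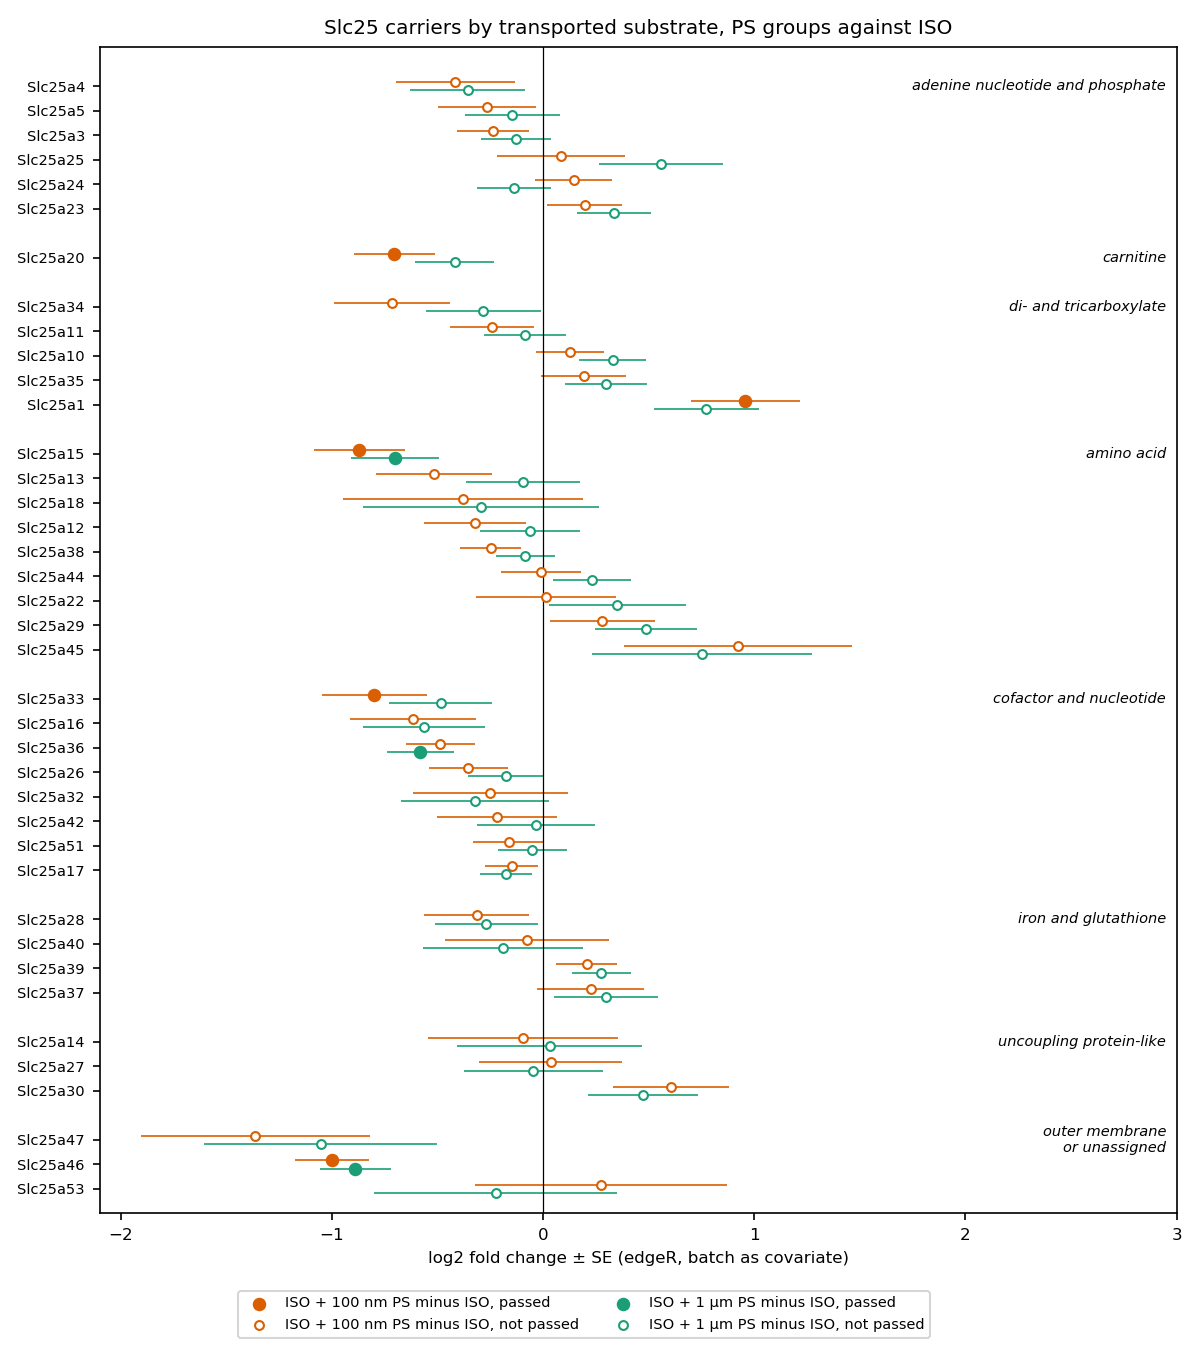
Log2 fold change against ISO (x axis) with its standard error for 39 tested members, grouped by transported substrate, for 100 nm (orange) and 1 µm particles (green). Filled points passed the test; they are Slc25a46, Slc25a15, Slc25a20, Slc25a33 and Slc25a1 at 100 nm and Slc25a46, Slc25a15 and Slc25a36 at 1 µm.

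Slc25a46 had the smallest adjusted p of the family in both comparisons. Its protein sits in the outer mitochondrial membrane, where it takes part in mitochondrial fusion and fission and in lipid transfer, and is not known to carry a substrate. Its levels in ISO replicates 1 to 6 were 110, 59.3, 70.8, 42.6, 27.8 and 47.4 CPM, in the 100 nm libraries 36.6, 34.8, 34.4, 44.2, 38.1 and 21.0 CPM, and in the 1 µm libraries 41.7, 44.1, 34.4, 34.9, 27.6 and 21.9 CPM. Replicates 4 to 6 of ISO, 6 of 100 nm and 5 and 6 of 1 µm are the batch 2 libraries, and levels of this gene were lower there. Over both batches the groups overlapped, but within each batch every particle library lay below every ISO library. The means were 59.7 ± 28.7 CPM in ISO, 34.9 ± 7.66 CPM at 100 nm and 34.1 ± 8.33 CPM at 1 µm (SD, n = 6).

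The log2 fold change of Slc25a46 was -1.0 (SE 0.18, edgeR adjusted p = 0.0093) at 100 nm and -0.89 (SE 0.17, adjusted p = 0.013) at 1 µm. Within batch 1 it was -1.10 and -1.05, and within batch 2 -0.90 and -0.69. The gene passed in both comparisons whichever of the 18 libraries was left out. It did not pass after correction for transcript GC content (-0.76, adjusted p = 0.054, and -0.58, adjusted p = 0.109), without the batch term (-0.77, adjusted p = 0.137, and -0.81, adjusted p = 0.166) or within batch 2 alone (adjusted p = 0.463 and 0.190). Slc25a46 also did not pass with the replicate number as a block (-0.996, adjusted p = 0.086, and -0.87, adjusted p = 0.072). The same held for the GC correction without ISO replicate 2 (-0.58, adjusted p = 0.124, and -0.42, adjusted p = 0.317). At 1 µm the call was also lost in the fit of only the groups compared (-0.96, adjusted p = 0.100). Apart from the fits without 1 library, the call held in 8 of 13 other settings at 100 nm and 7 at 1 µm. In batch 2 the deposited estimates for Slc25a46 were not whole in any of the 6 libraries, so reads shared with other features may enter its level there.

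Among the carriers of adenine nucleotides and phosphate, none of the 6 tested members passed in either comparison. Slc25a4 had 2258, 12097, 5236, 7604, 6425 and 6125 CPM in ISO replicates 1 to 6, so that ISO replicate 1 was the lowest and ISO replicate 2 the highest of all 18 libraries. The 100 nm libraries had 4339, 4876, 5630, 4849, 6135 and 4372 CPM and the 1 µm libraries 4771, 5149, 5205, 5904, 4993 and 5211 CPM, all inside the ISO range. Slc25a4 differed by -0.42 (SE 0.28, edgeR adjusted p = 0.343) at 100 nm and by -0.36 (SE 0.27, adjusted p = 0.413) at 1 µm. These values rested on the first 2 ISO libraries: without ISO replicate 1 the 100 nm value was -0.65 and passed (adjusted p = 0.041), and without ISO replicate 2 it was -0.01. Its share of the family's summed CPM was 36.5% to 76.4% in ISO, 50.7% to 67.7% at 100 nm and 47.0% to 65.6% at 1 µm.

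The phosphate carrier Slc25a3 had 2106, 1252, 1467, 2001, 2346 and 2027 CPM in ISO, 1106, 1158, 1364, 1385, 1313 and 2048 CPM at 100 nm and 1293, 1432, 1222, 1406, 2585 and 1830 CPM at 1 µm. The highest value of each particle group came from batch 2, and the groups overlapped. It differed by -0.24 (SE 0.17, edgeR adjusted p = 0.367) at 100 nm and by -0.13 (SE 0.16, adjusted p = 0.644) at 1 µm. Its heart and general isoforms cannot be told apart in counts per gene, and batch 2 estimates of it were not whole in 5 of 6 libraries. Slc25a5, the more widely expressed translocase, whose processed pseudogenes can share its reads, ranged from 214 to 598 CPM (median 332) in ISO, from 223 to 396 CPM (median 257) at 100 nm and from 259 to 464 CPM (median 290.3) at 1 µm. It did not pass at 100 nm (-0.26, SE 0.23, adjusted p = 0.467) or at 1 µm (-0.15, SE 0.23, adjusted p = 0.711), and its sign turned without ISO replicate 2 (0.12 and 0.20). The 3 tested ATP-magnesium/phosphate carriers, Slc25a23, Slc25a24 and Slc25a25, differed by 0.09 to 0.20 at 100 nm and by -0.14 to 0.56 at 1 µm and did not pass.

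Slc25a20, the carnitine-acylcarnitine carrier, is the only entry route of long-chain acylcarnitines to the matrix. It had 115, 129, 165, 171, 147 and 160 CPM in ISO, 58.4, 52.4, 72.5, 86.7, 82.4 and 130 CPM at 100 nm, and 79.5, 98.2, 64.4, 78.4, 196 and 137 CPM at 1 µm. At 100 nm every library lay below all ISO libraries of its batch, while at 1 µm replicate 5 was the highest of all 18 libraries and the other batch 2 library lay below the ISO libraries of its batch. The fall at 100 nm was -0.70 (SE 0.19, edgeR adjusted p = 0.0314), from 148 ± 22.1 to 80.4 ± 27.6 CPM (SD, n = 6). At 1 µm the difference was -0.42 (SE 0.19, adjusted p = 0.158).

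Within batch 1 the value of Slc25a20 was -0.95 at 100 nm and -0.77 at 1 µm, and within batch 2 -0.29 and 0.04. The test of the batch-by-group terms did not pass for it (edgeR adjusted p = 0.554). The call at 100 nm was lost without ISO replicate 3 (-0.55, edgeR adjusted p = 0.056) and without 100 nm replicate 1, 2, 3 or 6 (-0.65, -0.63, -0.70 and -0.76, adjusted p from 0.060 to 0.074). Of the 5 genes that act beside it in the carnitine shuttle (Cpt1a, Cpt1b, Cpt2, Crat and Slc22a5), none passed in either comparison, with medians of -0.34 and -0.16. Their summed level was 668 to 1297 CPM in ISO, 338 to 1332 CPM at 100 nm and 400 to 1953 CPM at 1 µm, and the 3 particle libraries of batch 2 gave the highest values of their groups.

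Of the carriers of di- and tricarboxylates, 1 of 5 tested members rose at 100 nm and none passed at 1 µm. Slc25a1 is the citrate carrier, which exports citrate for the making of cytosolic acetyl-CoA. It had 3.77, 8.57, 6.83, 7.77, 11.4 and 7.22 CPM in ISO, 25, 12.6, 11.5, 10.8, 10 and 14.7 CPM at 100 nm, and 13.1, 11.3, 15.6, 11.4, 12.6 and 11.6 CPM at 1 µm. Within each batch all particle libraries of both sizes lay above all ISO libraries, and only ISO replicate 5, a batch 2 library, reached the particle levels of batch 1. Slc25a1 was the only carrier whose particle libraries lay above ISO within both batches at both sizes.

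Slc25a1 rose from 7.60 ± 2.49 to 14.1 ± 5.56 CPM at 100 nm (SD, n = 6), by 0.96 on the log2 scale (SE 0.26, edgeR adjusted p = 0.0301), and its value at 1 µm was 0.77 (SE 0.25, adjusted p = 0.0623). The 100 nm group rested in part on replicate 1, the highest library: without it the value was 0.73 (adjusted p = 0.061). The call was also lost without 100 nm replicate 2 (0.98, adjusted p = 0.052) or replicate 6 (0.99, adjusted p = 0.072). Slc25a1 has 59.1% GC, and after correction for GC content its values were 0.37 and 0.22. The oxoglutarate-malate carrier Slc25a11 had 395 to 665 CPM (median 539) in ISO, 316 to 635 CPM (median 403) at 100 nm and 370 to 818 CPM (median 443) at 1 µm, and did not pass (-0.24, SE 0.20, adjusted p = 0.437, and -0.09, SE 0.19, adjusted p = 0.809). Slc25a34 did not pass at 100 nm (-0.71, SE 0.28, adjusted p = 0.0991), and the dicarboxylate carrier Slc25a10 and Slc25a35 had values from 0.13 to 0.33 over both comparisons.

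**Figure D3:**
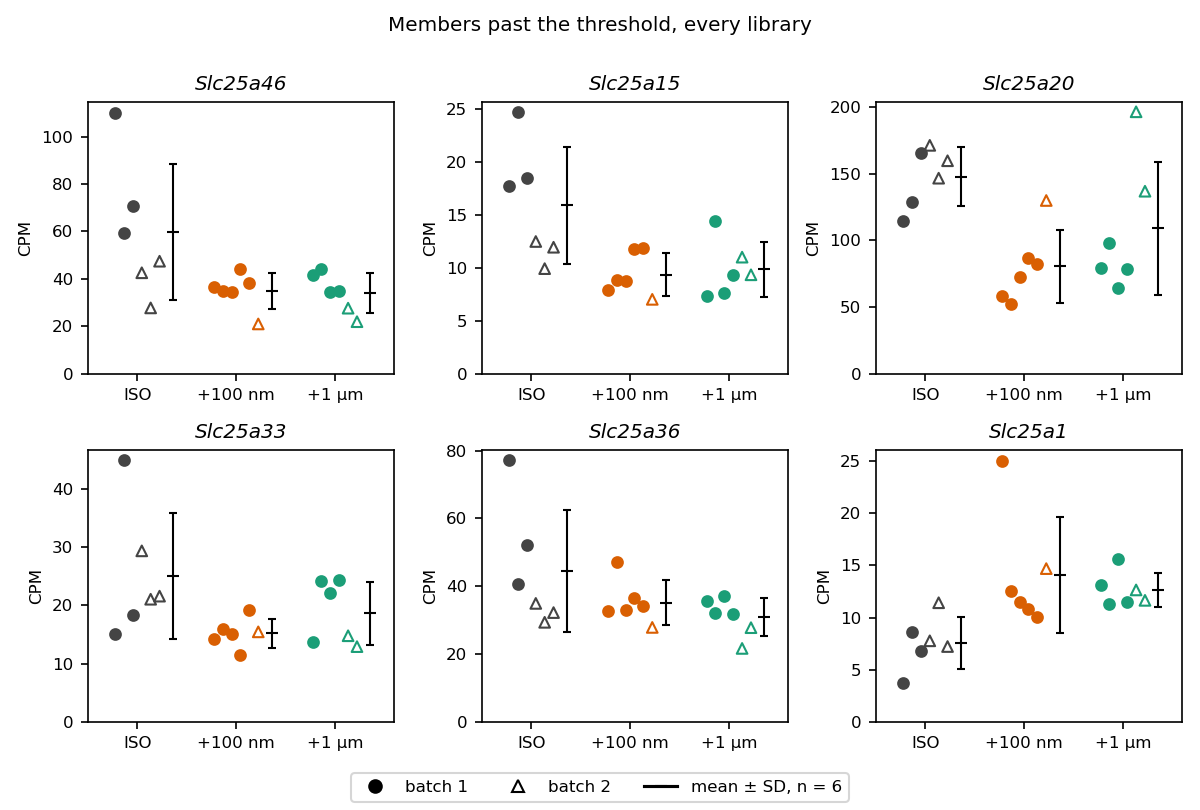
CPM in every library for the 6 members that passed in a comparison, by group (x axis), with circles for batch 1, open triangles for batch 2 and bars for the mean and SD of 6 libraries. Within each batch the particle points of Slc25a46 lie below and those of Slc25a1 above the ISO points, while 1 µm replicate 5 is the highest point of Slc25a20.

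Among the 9 tested amino acid carriers, Slc25a15 fell in both comparisons and no other passed. Slc25a15 exchanges ornithine and citrulline across the inner membrane and serves the urea cycle in liver. It was a low gene here, at 17.8, 24.8, 18.5, 12.5, 9.94 and 12.0 CPM in ISO, 7.88, 8.89, 8.75, 11.8, 11.9 and 7.04 CPM at 100 nm, and 7.35, 14.5, 7.66, 9.32, 11 and 9.36 CPM at 1 µm. Within each batch the 100 nm libraries lay below all ISO libraries, and at 1 µm the groups of batch 2 overlapped.

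The fall of Slc25a15 was -0.87 (SE 0.21, edgeR adjusted p = 0.0214) at 100 nm and -0.70 (SE 0.21, adjusted p = 0.0473) at 1 µm. Within batch 1 the values were -1.05 and -1.07, and within batch 2 -0.70 and -0.19. At 100 nm the call was lost without 100 nm replicate 1 (-0.82), 2 (-0.84) or 6 (-0.85), with adjusted p up to 0.0657. At 1 µm it was lost in 13 of the 18 fits that left out a library, with values from -0.82 to -0.58 and adjusted p from 0.0309 to 0.106 over the 18. It held only without ISO replicate 1, 3 or 5 or 1 µm replicate 2 or 5.

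The aspartate-glutamate carriers of the malate-aspartate shuttle, Slc25a12 and Slc25a13, did not pass. Slc25a12 had 149 to 252 CPM (median 201) in ISO, 120 to 196 CPM (median 152) at 100 nm and 122 to 366 CPM (median 157) at 1 µm, and differed by -0.32 (SE 0.24, edgeR adjusted p = 0.394) and -0.06 (SE 0.24, adjusted p = 0.896). Slc25a13 had 61.6 to 118 CPM (median 99.6) in ISO, 44.1 to 90.7 CPM (median 64.4) at 100 nm and 56.4 to 178 CPM (median 70.4) at 1 µm, and differed by -0.52 (SE 0.28, adjusted p = 0.222) and -0.10 (SE 0.27, adjusted p = 0.849). The highest 1 µm value of both genes was that of replicate 5. Per kilobase the Slc25a12 to Slc25a13 ratio was 1.06 ± 0.151 in ISO, 1.22 ± 0.161 at 100 nm and 1.10 ± 0.165 at 1 µm (SD, n = 6), with overlapping ranges. None of the 4 enzymes of the shuttle (Got1, Got2, Mdh1 and Mdh2) passed in either comparison, with medians of -0.15 and 0.02.

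Slc25a38, the glycine carrier needed for haem synthesis, was the only member whose pooled groups did not overlap at 100 nm, which is 2.5% of the 40 members against 2.37% of all genes tested. It had 17.4, 21.4, 20.5, 17.6, 18.3 and 18.7 CPM in ISO and 14.3, 16.9, 16.1, 13.2, 16.6 and 16.5 CPM at 100 nm. The difference was small, at -0.25 (SE 0.14, edgeR adjusted p = 0.257), and did not pass. It was named after its values were seen. At 1 µm no member had pooled groups that did not overlap, against 1.55% of all genes.

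All 9 carriers of cofactors and nucleotides were tested, and 1 of them passed at each particle size, in both cases by falling. The median of the 9 was -0.25 at 100 nm and -0.18 at 1 µm. The members that passed, Slc25a33 at 100 nm and Slc25a36 at 1 µm, are both pyrimidine nucleotide carriers, which supply the matrix with nucleotides for mitochondrial DNA and RNA. The others, none of which passed, carry coenzyme A (Slc25a42), NAD (Slc25a51), S-adenosylmethionine (Slc25a26) and other cofactors.

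Slc25a33 had 15.1, 44.9, 18.4, 29.4, 21.1 and 21.6 CPM in ISO, 14.2, 15.9, 15.0, 11.5, 19.2 and 15.5 CPM at 100 nm, and 13.7, 24.2, 22.1, 24.3, 14.8 and 12.9 CPM at 1 µm. ISO replicate 2 was the highest, and the 100 nm group overlapped ISO in batch 1 but not in batch 2. It fell by 0.80 on the log2 scale at 100 nm (SE 0.25, edgeR adjusted p = 0.0496), and at 1 µm its value was -0.48 (SE 0.24, adjusted p = 0.207). Without ISO replicate 2 the 100 nm value was -0.50 (adjusted p = 0.139), and the call was lost in 16 of the 18 fits that left out a library, all except those without ISO replicate 1 or 3, with adjusted p up to 0.139.

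Slc25a36 had 77.3, 40.5, 52.3, 35.0, 29.4 and 32.2 CPM in ISO, 32.7, 47.2, 33.0, 36.4, 34.1 and 27.9 CPM at 100 nm, and 35.6, 32.1, 37.0, 31.8, 21.7 and 27.8 CPM at 1 µm. Within each batch all 1 µm libraries lay below all ISO libraries, and 100 nm replicate 2 lay inside the ISO range of its batch. It fell at 1 µm by 0.58 on the log2 scale (SE 0.16, edgeR adjusted p = 0.0362). Its values within the batches were -0.74 and -0.40. At 100 nm the value was -0.49 (SE 0.16, adjusted p = 0.0646), and it passed without ISO replicate 2 (-0.58, adjusted p = 0.022). The 1 µm call was lost without ISO replicate 1 (-0.40, adjusted p = 0.051), 4 or 6, without 100 nm replicate 4, and without 1 µm replicate 1, 2, 3, 4 or 5, with adjusted p up to 0.0783.

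The coenzyme A carrier Slc25a42 had 20.1 to 60.1 CPM (median 30.8) in ISO, 18.9 to 42.0 CPM (median 24.6) at 100 nm and 17.8 to 72.8 CPM (median 26.4) at 1 µm. ISO replicate 3 was the highest ISO library and 1 µm replicate 5 the highest of all. It differed by -0.22 (SE 0.29, edgeR adjusted p = 0.644) at 100 nm and -0.03 (SE 0.28, adjusted p = 0.952) at 1 µm, and both values turned positive without ISO replicate 3 (0.27 and 0.39).

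None of the 4 carriers of iron and glutathione passed. The mitoferrins Slc25a28 and Slc25a37 differed by -0.31 and 0.23 at 100 nm and by -0.27 and 0.30 at 1 µm, and the glutathione carriers Slc25a39 and Slc25a40 by 0.21 and -0.08 and by 0.28 and -0.19. Per kilobase Slc25a37, the mitoferrin of red cell precursors, stood at 0.216 ± 0.130 of Slc25a28 in ISO, 0.237 ± 0.0457 at 100 nm and 0.241 ± 0.0571 at 1 µm (SD, n = 6). None of the 3 tested members related to the uncoupling proteins, Slc25a14, Slc25a27 and Slc25a30, passed, with values from -0.10 to 0.61 at 100 nm and from -0.05 to 0.47 at 1 µm. Slc25a47 and Slc25a53, with Slc25a46 the tested members outside the substrate classes, did not pass. Slc25a47 had the lowest values of the family, -1.36 (SE 0.54, edgeR adjusted p = 0.110) at 100 nm and -1.05 (SE 0.55, adjusted p = 0.226) at 1 µm. It had 47.0 CPM in ISO replicate 2 and at most 5.09 CPM elsewhere in the group, and without that library its values were 0.13 and 0.26.

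Particle libraries lay wholly below ISO within both batches for 4 members at 100 nm (Slc25a46, Slc25a15, Slc25a20 and Slc25a38; 10% of 40, against 3.65% of all genes tested) and wholly above it for 2 (Slc25a1 and Slc25a45; 5.0% against 5.75%). At 1 µm the members below were Slc25a46 and Slc25a36 (5.0% against 1.91%) and the member above was Slc25a1 (2.5% against 3.12%). Batch 2 has 1 library of 100 nm and 2 of 1 µm, so this ordering asks little of it. Slc25a45 at 100 nm had a value of 0.92 (SE 0.54, edgeR adjusted p = 0.267), and ISO replicate 2 had 0 counts of it.

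The batches differed in the sign of many members. The median over the family was -0.27 in batch 1 and 0.01 in batch 2 at 100 nm, and -0.23 and 0.08 at 1 µm. Of the 39 members tested in both batches, 19 had the same sign in both at 100 nm and 16 at 1 µm. The summed CPM of the whole family was 6191, 15844 and 8897 in the batch 1 ISO libraries, with the batch 1 particle libraries inside that range at 6844 to 9066. Without Slc25a4 the sum was 3660 to 3934 in the batch 1 ISO libraries and 2505 to 3349 in the batch 1 particle libraries. In batch 2 it was 3947 to 4336 in ISO and 3712 to 5633 with particles. The test of the batch-by-group terms called 0.0821% of all genes and no member (edgeR, lowest adjusted p = 0.373, with 3 members at an unadjusted p under 0.05), so a difference between the batches was not shown for any single carrier.

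The particle sizes, given at the same dose and for the same days, were compared in the same fit. No carrier and 0% of all genes passed between 1 µm and 100 nm (edgeR, with 0 members and 49 of 14623 genes at an unadjusted p under 0.05). That is far fewer genes than this threshold gives by chance, so the test was conservative here. The fit takes its spread from all 18 libraries, ISO included. A fit of only the particle groups had 282 genes and 0 members at an unadjusted p under 0.05, and 0 passed. The cause of the low count was not tested. The values of 1 µm minus 100 nm ran from -0.50 to 0.47, 30 positive and 10 negative, with a median of 0.11 against 0.01 over all genes. For the members that passed against ISO they were 0.11 (SE 0.17) for Slc25a46, 0.17 (SE 0.21) for Slc25a15, 0.28 (SE 0.19) for Slc25a20, 0.31 (SE 0.24) for Slc25a33, -0.09 (SE 0.16) for Slc25a36 and -0.18 (SE 0.24) for Slc25a1. So the carriers that passed at one size and not at the other were not shown to differ between the sizes.

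The fold changes ran with the GC content of the transcripts. Genes that rose at 100 nm had a median GC content of 57.2% and genes that fell 43.6%, and at 1 µm the medians were 58.0% and 42.6%. Across the 40 carriers, which share the same libraries, Spearman's correlation of log2 fold change with GC content was 0.217 at 100 nm and 0.431 at 1 µm, against 0.456 and 0.516 over 14593 genes. Slc25a46 and Slc25a36 are among the carriers poorest in GC, at 40.8% and 40.7%, and Slc25a1 at 59.1% is among the richest, while Slc25a15 (47.7%), Slc25a20 (50.1%) and Slc25a33 (53.8%) lie between. With a correction for GC content no member and no gene of the whole table passed in either comparison, and 16 members at 100 nm and 10 at 1 µm had an unadjusted p under 0.05. The values themselves moved both ways under the correction. At 100 nm those of Slc25a15, Slc25a20 and Slc25a33 became larger (-1.01, -0.87 and -1.15, edgeR adjusted p = 0.055, 0.054 and 0.054), and those of Slc25a46 and Slc25a1 smaller (-0.76 and 0.37). At 1 µm Slc25a15 became larger (-0.82, adjusted p = 0.110) and Slc25a46 and Slc25a36 smaller (-0.58 and -0.29). This correction moved the median of all genes to -0.15 and -0.10, and the cause of the relation was not tested.

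**Figure D4:**
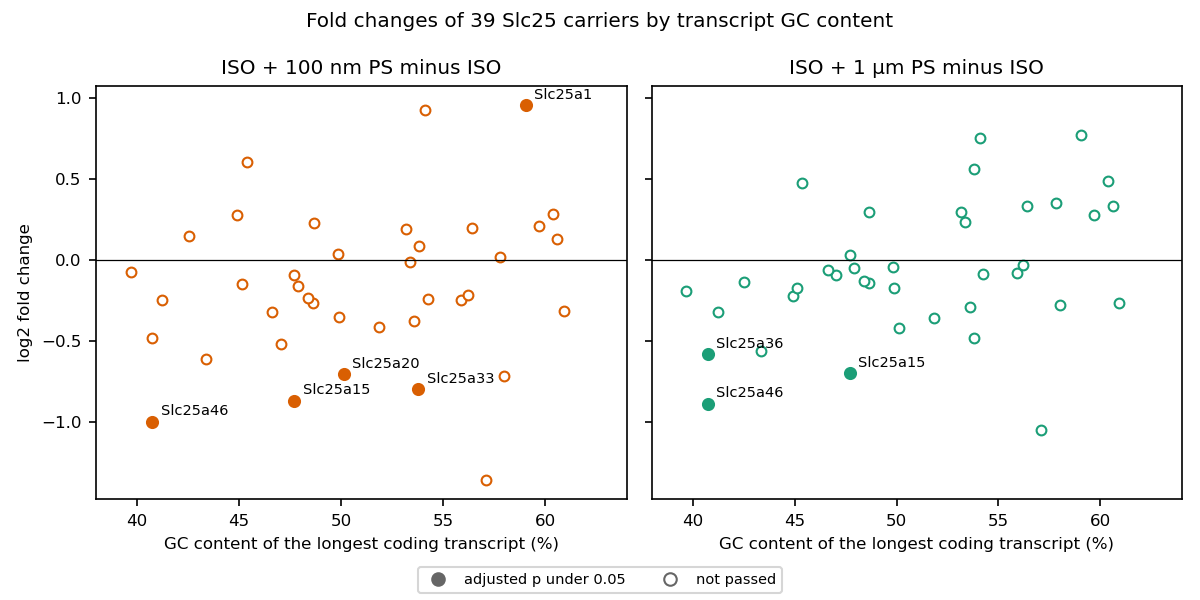
Log2 fold change against ISO (y axis) by GC content of the longest coding transcript (x axis, percent) for 39 tested members, at 100 nm (left) and 1 µm (right), with filled, named points for members that passed. Slc25a46 and Slc25a36 lie at about 41% GC and Slc25a1 at 59.1%.

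Proteins of the same fold under other names, and the machinery that brings carriers into the membrane, were measured beside the family. Of the 4 tested genes among the uncoupling proteins and the carrier homologues Mtch1 and Mtch2, Mtch2, an outer membrane insertase, fell in both comparisons (-0.72, SE 0.20, edgeR adjusted p = 0.0349, and -0.67, SE 0.20, adjusted p = 0.0464). Mtch2 was lower than all ISO libraries of the same batch in every particle library, but rested for its size on ISO replicate 2, at 306 CPM where the others of the group had 126 to 159 CPM. Without that library it was -0.38 (adjusted p = 0.047) and -0.37 (adjusted p = 0.048). Leaving out other single libraries ended its call in 8 of 18 fits at 100 nm and 14 at 1 µm, with adjusted p up to 0.104.

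Of 13 genes for the import of carriers, 4 fell at 100 nm and 2 at 1 µm, and none rose, where 5.69% and 4.5% of all genes fell. These were Tomm20 and Tomm22, receptors of the outer membrane translocase, in both comparisons, and Tomm70a, the receptor that binds carrier precursors, and Timm8b, an intermembrane space chaperone, at 100 nm. Tomm20 had 95.4, 134, 74.9, 182, 116 and 112 CPM in ISO, 54.4, 60.1, 58.6, 66.4, 67.8 and 82.1 CPM at 100 nm, and 66.9, 64.9, 57.7, 60.1, 80.0 and 85.7 CPM at 1 µm, so that within each batch all particle libraries lay below ISO. It fell by 0.73 (SE 0.16, edgeR adjusted p = 0.0156) and by 0.71 (SE 0.15, adjusted p = 0.0178) on the log2 scale, and lost its call only at 100 nm without replicate 6 of that group (-0.72, adjusted p = 0.054) among the fits that left out a library. Tomm70a fell by 0.72 (SE 0.20, adjusted p = 0.0325), Tomm22 by 0.73 (SE 0.21, adjusted p = 0.0379) and Timm8b by 0.96 (SE 0.29, adjusted p = 0.0467) at 100 nm, and Tomm22 by 0.71 (SE 0.21, adjusted p = 0.0447) at 1 µm. Without ISO replicate 2 the values of Tomm22 were -0.36 and -0.37 and that of Timm8b -0.64, none passing, and Tomm70a was -0.51 without ISO replicate 1 (adjusted p = 0.073). In the fits that left out a library, the 100 nm call was lost in 10 of 18 for Tomm22, 6 for Tomm70a and 16 for Timm8b, and the 1 µm call of Tomm22 in 14. The median of the 13 genes was -0.69 at 100 nm and -0.59 at 1 µm, against -0.02 and -0.00 over all genes tested. In batch 1 their summed level was 491, 1097 and 593 CPM in ISO replicates 1 to 3 and 445 to 564 CPM with particles. ISO replicate 1 thus lay inside the particle range, and ISO replicate 2 was the highest. In batch 2 the sums were 691 to 899 CPM in ISO and 529 to 565 CPM with particles.

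Of 22 other transporters of the mitochondrial membranes, 2 fell at 100 nm and 3 at 1 µm, and none rose, against 5.69% and 4.5% of all genes that fell. The medians of the 22 genes were -0.43 and -0.30. Mpc2, a subunit of the mitochondrial pyruvate carrier, fell by 1.22 (SE 0.30, edgeR adjusted p = 0.0207) and by 1.14 (SE 0.29, adjusted p = 0.0266) on the log2 scale. It had 267 to 1224 CPM in ISO and 177 to 279 CPM over the 12 particle libraries, and without ISO replicate 2, the highest, it was -0.62 (adjusted p = 0.045) and -0.61 (adjusted p = 0.039). The outer membrane channel Vdac3 fell by 0.53 (SE 0.15, adjusted p = 0.0337) and by 0.51 (SE 0.14, adjusted p = 0.0374), and Micu3, a regulator of the calcium uniporter, fell at 1 µm by 0.92 (SE 0.25, adjusted p = 0.0369). Leaving out 1 library ended the call of Mpc2 in 1 of 18 fits at 100 nm and 5 at 1 µm, that of Vdac3 in 7 and 9, and that of Micu3 at 1 µm in 11. With the GC correction none of the genes named from these lists passed, but several values became larger, such as those of Mpc2 (-1.58 and -1.47) and Mtch2 (-0.89 and -0.80), while those of Tomm70a at 100 nm (-0.44) and Micu3 at 1 µm (-0.55) became smaller.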

How the data were processed

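Poly(A) RNA of mouse hearts was sequenced as paired-end libraries on an Illumina platform, per the labels' protocols. Batch 1 was deposited as raw counts, whole numbers per Entrez gene. Batch 2 was deposited as estimated counts per Ensembl gene, with fractions in 19.6% of the values above 0. Among the tools in the submitters' processing notes are featureCounts 1.5.0-p3, HISAT2 2.0.5 and StringTie 1.3.3b, with the builds GRCm39 and mm39; which of them made which table is not stated there.

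Tables were joined through 22144 one-to-one ID pairs (GENCODE) and 13416 identical symbols, and estimates were rounded. The 215 unnamed entries of batch 1 were left out (0.16% to 0.39% of its counts). The joined genes held 98.9% to 99.5% of the counts in batch 1, and in batch 2 85.2% to 87.4% for ISO and 93.1% to 95.8% for particle libraries. Genes were kept by edgeR's filterByExpr at a minimum count of 10 and tested over all 18 libraries by the quasi-likelihood test of edgeR 4.0.16 (R 4.3.3) with TMM factors, group and batch (14 residual degrees of freedom). CPM uses TMM-scaled library sizes. The TMM factors differed by group: in ISO they were 0.80 to 0.93 except in replicate 3 (1.03). With particles they were 1.00 to 1.22 except in 1 µm replicate 5 (0.859). GC content and length come from the longest coding transcript. DESeq2 1.42.0 and limma 3.58.1 were alternatives, and the scripts were tested on simulated data. The replicates' numbers were not treated as pairs, and p-values measure the spread between these libraries, each labelled as its own mouse heart. None of the 23 pairs of libraries of the same group and batch agreed within sampling noise.

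Members that passed in a comparison with ISO, and Slc25a3, Slc25a4, Slc25a5, Slc25a11, Slc25a12, Slc25a13, Slc25a20 and Slc25a42 in any case, are described singly, and the others by substrate. One tested member counts in the totals but is not reported here singly or in figures. Genes of the pathway lists are named where they passed. The members and lists were chosen with earlier results of these data known.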

Additional observations from a re-analysis of the deposited data

Results flagged for a closer look

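In 20 of 117 groups of 6 libraries (39 members in 3 groups), 1 library stood apart from the other 5 by Dixon's test. Chance gives about 1 in 20 for a single group. The members share the same 18 libraries, so the flags are not independent and their number cannot be set against that rate. Of the 20, 8 were replicate 5 of the 1 µm group, always as the highest library: Slc25a11 at 818 CPM (next 502 CPM), Slc25a5 at 464 CPM (next 303 CPM), Slc25a12 at 366 CPM (next 205 CPM), Slc25a13 at 178 CPM (next 93.1 CPM), Slc25a23 at 94.6 CPM (next 55.7 CPM), Slc25a44 at 37.0 CPM (next 18.9 CPM), Slc25a29 at 24.7 CPM (next 10.9 CPM) and Slc25a47 at 9.04 CPM (next 5.63 CPM). Replicate 6 of the 100 nm group, the only batch 2 library of that group, was highest for 5: Slc25a3 at 2048 CPM (next 1385 CPM), Slc25a23 at 75.4 CPM (next 45.9 CPM), Slc25a28 at 33.7 CPM (next 26.3 CPM), Slc25a44 at 22.1 CPM (next 14.7 CPM) and Slc25a35 at 11.9 CPM (next 6.72 CPM). These groups mix batches, and those of both libraries were not tested within a batch.

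ISO replicate 2 was highest for Slc25a47 at 47.0 CPM (next 5.09 CPM), Slc25a27 at 10.4 CPM (next 4.28 CPM) and Slc25a18 at 1.39 CPM (next 0.526 CPM). ISO replicate 5 was highest for Slc25a39 at 137 CPM (next 113 CPM), and ISO replicate 1 was lowest for Slc25a29 at 3.68 CPM (next 8.21 CPM). In the 100 nm group replicate 1 was highest for Slc25a1 at 25 CPM (next 14.7 CPM), and in the 1 µm group replicate 6 was highest for Slc25a25 at 26.4 CPM (next 10.5 CPM).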

How the results depend on the processing

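At 100 nm 5 members passed with RLE size factors and with a filter of 1 CPM in 6 libraries, 6 with DESeq2 and 4 in batch 1 alone. Over all genes 1399 passed. Fewer members passed without a low-count filter (3, with 717 over all genes), with limma voom and quality weights (2, with 2180), in a fit of only the groups compared (2, with 364) and without ISO replicates 1 and 2 together (1, with 606). Leaving out 1 library gave 1 to 7 members and 170 to 2283 genes. None passed without the batch term (8 members at an unadjusted p under 0.05), in batch 2 alone (1), with the replicate block (7) or with the GC correction (16; 13 also without ISO replicate 2, a setting chosen after seeing the data). At 1 µm the count was 3 with RLE and the stricter filter, 4 with DESeq2, 2 with voom, in batch 1 alone and without ISO replicates 1 and 2, 1 without a low-count filter (481 genes against 1081), and 1 to 4 when 1 library was left out (265 to 2334 genes). It was 0 without the batch term (5 members at an unadjusted p under 0.05), in batch 2 alone (8), with only the groups compared (5), with the replicate block (4) and with the GC correction (10; 8 without ISO replicate 2). Without the batch term, with the block and with the GC correction no gene of the whole table passed. The same held at 1 µm for the fit of only the groups compared, so the 1 µm calls needed the 100 nm libraries in the fit. The size comparison gave 0 members under every setting run. The cause of these differences between settings was not tested.

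The replicate numbers are not stated to pair mice. Libraries with the same number had residual correlations from -0.44 to 0.23, and 0 of 18 libraries correlated best with their own number.

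The signs of members that did not pass turned under some settings. Only members described singly are listed here and in the next paragraph, and others, such as Slc25a47, turned too. Within batch 2 alone the values were 0.15 and 0.078 for Slc25a5 (100 nm and 1 µm), 0.22 and 0.17 for Slc25a11, 0.14 and 0.64 for Slc25a12, 0.28 and 0.71 for Slc25a42, and at 1 µm 0.032 for Slc25a3, 0.53 for Slc25a13 and 0.043 for Slc25a20. With voom they were 0.077 and 0.12 for Slc25a5, 0.057 and 0.14 for Slc25a11, 0.011 and 0.097 for Slc25a12 and 0.11 and 0.21 for Slc25a42. Without ISO replicates 1 and 2 together they were 0.081 and 0.17 for Slc25a5 and, at 1 µm, 0.0089 for Slc25a11, 0.075 for Slc25a12 and 0.012 for Slc25a13. With the GC correction and without ISO replicate 2 they were 0.15 and 0.23 for Slc25a5 and, at 1 µm, 0.16 for Slc25a12 and 0.029 for Slc25a13. Without the batch term Slc25a42 was 0.0010 at 1 µm.

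Leaving out 1 library turned the sign in at least 1 fit for Slc25a5 at 100 nm (-0.37 to 0.12) and 1 µm (-0.26 to 0.20), Slc25a42 at 100 nm (-0.32 to 0.27) and 1 µm (-0.27 to 0.39), and, at 1 µm, Slc25a3 (-0.23 to 0.017), Slc25a11 (-0.25 to 0.041), Slc25a12 (-0.37 to 0.043) and Slc25a13 (-0.50 to 0.019). Depth limits the members under 1 CPM, which could not be tested or had SEs up to 0.60.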
